A study of Mus musculus with 14 samples.

Results

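The subject here is the comparison of middle-sized lung tumors with control lung on Affymetrix Murine Genome U74v2 arrays, 8 of the 14 arrays of the series. The arrays were chosen by their labels alone, 4 as lung tumor of middle size and 4 as lung without a transgene, and all of the 12422 probe sets that are not Affymetrix controls were considered. The tumors grew in mice hemizygous for the SPC/c-Myc transgene, bred on CD2F1-(DBA/2xBalb/C), in which the surfactant protein C promoter drives c-Myc in the alveolar epithelium, and each was 1 tumor of about 4 to 5 mm from its own animal. The control lungs came from 4 non-transgenic mice of that background, and all animals were 9 to 13 months old. The comparison asks which transcripts differ between a tumor of this size and lung that carries neither tumor nor transgene. No array of transgenic lung without a tumor was used here, so the transgene and the tumor cannot be told apart. The control is whole lung with its airways, vessels and blood, whereas a tumor was cut out of the surrounding tissue. Pools of small tumors (3 arrays) and single large tumors (3 arrays) were used only to see whether the middle size stood apart.

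c-Myc is a transcription factor that binds DNA as a dimer with Max, most readily at the sequence CACGTG, called an E-box. It is known for raising the genes of ribosome assembly, nucleotide synthesis and the cell cycle, and Mxd proteins compete with it for Max. Normal alveoli are lined by thin type I cells, which cover most of the gas exchange surface, and by type II cells, which secrete surfactant and serve as their progenitors, and both lie on a dense capillary bed.

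The deposited signal is a linear intensity per probe set, scaled by the authors to the same target on every array, so that a signal compares a transcript's share of what was measured. A signal of 70, the level the study took as expressed, was the lowest value used in the calculations, and 6796 to 7575 probe sets reached it on 7 of the 8 arrays. On the array of middle tumor 3 only 5630 did, and 25.2% of its values were listed at 0 or below 1e-06 and were treated as missing. Results for genes without a value there rest on 3 tumors. Among those given below without their signals, this holds for Mxi1, Pes1, Mybbp1a, Nek6, Lpcat1, Sftpb, Sox4, Inhbb and Msn, and possibly for others. Surfactant protein C (Sftpc), the defining product of type II cells, was 9191, 12067, 6029 and 11936 in the control lungs and 8463, 10550.2, 9939 and 9407 in tumors 1 to 4, so every array carried this marker of lung epithelium. Of the sex-linked genes, the Y-linked Eif2s3y was 270.3, 213, 7.17 and 148 in the control lungs and 229, 311, 337 and 313 in the tumors, and Xist reached 70 only in control lung 3, at 159.9. The part of this difference in the results was not tested. Without control lung 3, 954 probe sets were higher and 1021 lower, and list counts without that lung are given below only where they moved by over 1.5 times.

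After low signals were left out, 6914 probe sets were tested with limma, and those with a Benjamini-Hochberg adjusted p below 0.05 were counted as changed, or called. Of the probe sets tested, 6128 had 1 gene symbol and stood for different genes, and the rest had none or several. In middle-sized tumors 1089 probe sets were higher (15.8% of those tested) and 1135 were lower (16.4%). At a change of at least 3-fold, 97 were higher (1.4%) and 302 were lower (4.37%), so the large changes were mostly falls. Every tumor with a value lay above every control lung for 954 probe sets (13.8%) and below for 1084 (15.7%). These 2 counts use the signals as listed, also those under 70, where the order is not reliable. The counts of the gene lists below are to be read against these shares, and a list near them is not set apart by its count. A probe set was tested if it reached 70 on 3 or more of the 14 arrays. One under 70 in all tumors passed through the control lungs alone and could only fall, and one under 70 in all control lungs could only rise. The median log2 fold change over all probe sets was 0.02. When each array was scaled to 1 median instead, this median moved by 0.16 on the log2 scale and the split became 1730 higher and 892 lower, so small rises and falls depend on the scaling. All differences below are log2 fold changes of middle-sized tumors minus control lung with their standard error (SE), from signals of at least 70, over 4 and 4 arrays unless a value is missing. The plot of gene lists shows the whole range, from ribosome biogenesis at the top to endothelial markers at the bottom.

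**Figure D1:**
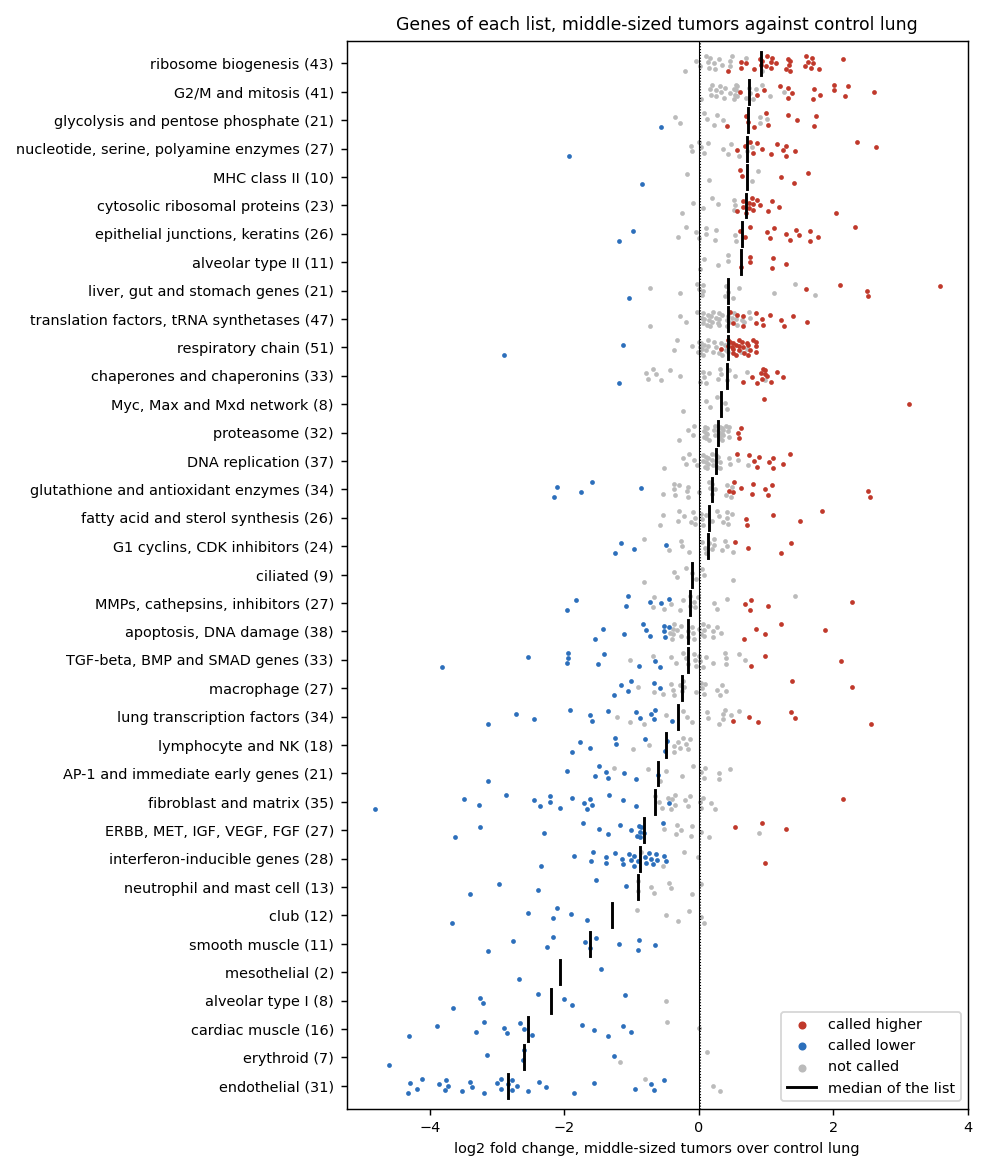
Each point is 1 tested gene of a list (number tested in parentheses), placed by its log2 fold change of middle-sized tumors over control lung, red where called higher, blue where called lower and grey where not called. Black bars are list medians, which run from 0.93 for ribosome biogenesis to -2.84 for endothelial markers, and the dotted line is the median of all probe sets, 0.02.

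Myc itself rose in all 4 tumors. Its signal was 35.6, 24.1, 26.3 and 32.9 in the control lungs, all under 70, and 325, 1246, 451 and 759.6 in tumors 1 to 4. The groups did not overlap, and tumor 1 was lowest and tumor 2 highest, 3.84-fold apart. Against the floor of 70 the tumors were at least 8.72-fold higher, with a log2 fold change of 3.12 ± 0.33 (adjusted p = 6.2e-06). The probe set does not separate the transgene from the endogenous gene, which lies at chr15:61985341-61990361 (GRCm38.p6). Of the 8 genes of the Myc, Max and Mxd network tested, 2 were higher, 0 were lower and the median was 0.33. The other one that rose was Mxi1, which encodes a repressor that pairs with Max, at 0.96 ± 0.13 (adjusted p = 9.0e-05). Max, the partner of Myc, was 480.1, 404, 478 and 382 in the control lungs and 428, 639, 560.3 and 483 in the tumors, a difference of 0.27 ± 0.14 (adjusted p = 0.17) that was not called. Mxd4, another partner of Max, gave 0.40 ± 0.22 (adjusted p = 0.18), also not called.

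**Figure D2:**
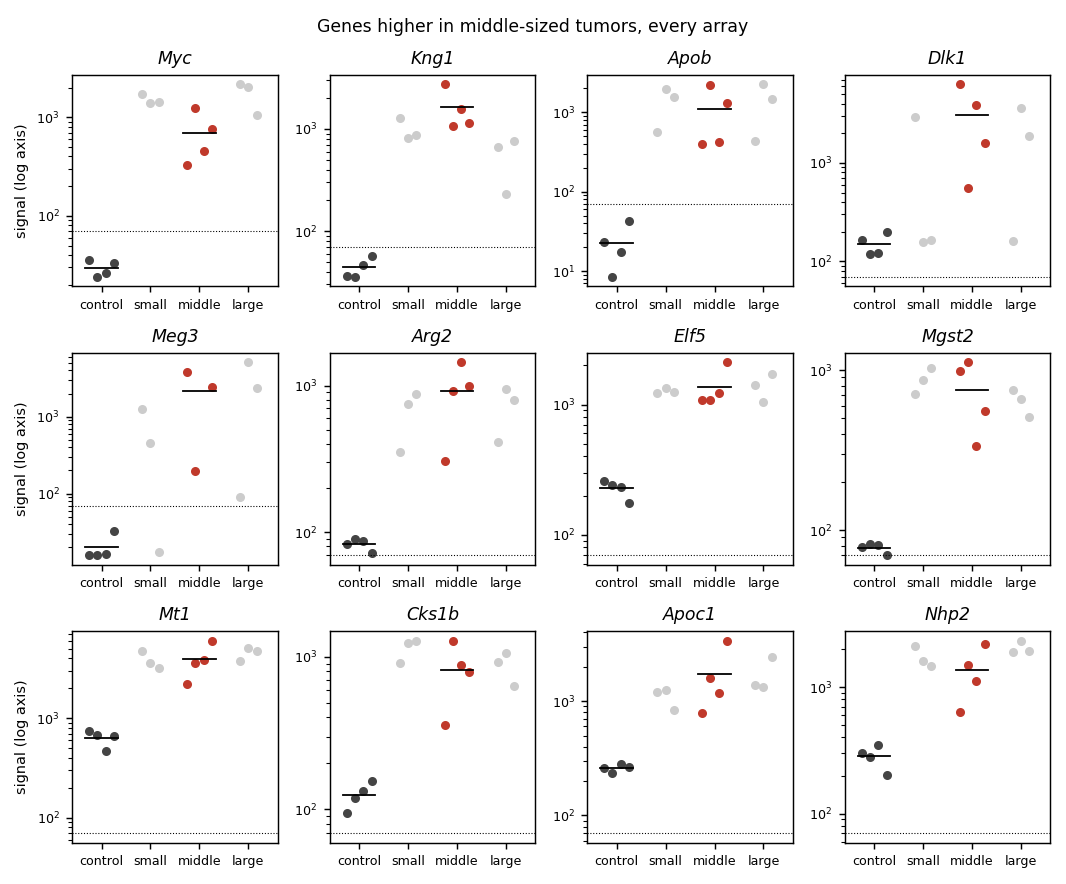
Signal of 12 genes that were higher in middle-sized tumors on a log axis, 1 point per array, with control lung in dark grey, middle-sized tumors in red, small and large tumors in light grey, bars at the means of control lung and middle-sized tumors and a dotted line at 70. All red points lie above all dark points in every panel, and the red points of Dlk1, Meg3, Myc and Apob are spread more widely than those of Elf5, while the value of tumor 3 is missing for Meg3.

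The genes of ribosome biogenesis, which make and process ribosomal RNA in the nucleolus, were the list with the highest median. Of 43 tested, 27 were higher and 0 lower, with a median of 0.93. Nhp2, a protein of the particles that convert uridine to pseudouridine in ribosomal RNA, was 301, 282, 347 and 203 in the control lungs and 635, 1498, 1111 and 2195 in tumors 1 to 4. Every tumor lay above every control lung, tumor 4 the most, and the difference was 2.15 ± 0.29 (adjusted p = 6.7e-05). Its partner Gar1 rose by 1.68 ± 0.32 (adjusted p = 0.0011), Tsr1, which acts in late assembly of the small subunit, by 1.79 ± 0.25 (adjusted p = 7.8e-05), and Nop16, which acts in assembly of the large subunit, by 1.70 ± 0.20 (adjusted p = 1.5e-05). The abundant nucleolar proteins rose as well. Ncl, nucleolin, was 1266, 1514, 1141 and 907 in control lung and 1668, 3268, 3685 and 4195 in the tumors (1.35 ± 0.25, adjusted p = 9.6e-04). Npm1, nucleophosmin, was 1321, 1396, 1181 and 862 in control lung and 2236, 4479 and 4317 in tumors 1, 2 and 4, with the value of tumor 3 missing (1.58 ± 0.24, adjusted p = 2.7e-04). In both, tumor 1 was the lowest tumor, though above every control lung. The summed signal of the 34 genes with a value on every array was 8997 to 9668 in control lung and 11734 to 25303 in the tumors.

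Because Myc and Max bind E-boxes, promoters of 250 bases before to 50 after the gene start (RefSeq, GRCm38.p6) were searched for CACGTG, which reads the same on both strands. It was found for 5 of the 24 called ribosome biogenesis genes with a promoter in the table, and these are shown with 12 bases on each side, or fewer where the promoter ends, the E-box in capitals:
Wdr43: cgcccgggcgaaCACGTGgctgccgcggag
Pes1: ccctaggcagggCACGTGcgggaggaagta
Mybbp1a: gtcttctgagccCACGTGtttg
Tsr1: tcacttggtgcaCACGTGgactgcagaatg
Nop2: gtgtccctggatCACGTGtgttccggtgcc
The E-box of Wdr43 (chr17:71616220-71616249) begins at base 18 after the start, that of Pes1 (chr11:3963965-3963994) at base 3 after the start, that of Mybbp1a (chr11:72441355-72441376) at base 41 after the start, that of Tsr1 (chr11:74898092-74898121) at base 25 after the start and that of Nop2 (chr6:125131811-125131840) 60 bases before the start, all on the + strand. Only list genes called higher were searched for these stretches, so the direction of the 5 was fixed by that choice. Tsr1 rose by the value above, Wdr43 by 0.94 ± 0.16 (adjusted p = 5.1e-04), Pes1 by 1.08 ± 0.32 (adjusted p = 0.019), Mybbp1a by 1.09 ± 0.33 (adjusted p = 0.022) and Nop2 by 0.92 ± 0.29 (adjusted p = 0.024). The call of Pes1 was lost without control lung 1 or tumor 2 or 4 (adjusted p up to 0.093), that of Mybbp1a without control lung 2 or tumor 4 (up to 0.0996) and that of Nop2 without control lung 1 or 2 or tumor 2 (up to 0.074) or tumor 4 (0.05). Over all genes tested with a promoter (4942), 12.3% held CACGTG, against 13.7% of 793 genes called higher and 9.99% of 781 called lower. On the whole ribosome biogenesis list, called or not, 8 of 39 held it (20.5%). Among its 24 members called higher the share was 20.8%, near that of the whole list. Of all 27025 promoters in the table, 8.09% held it. For CACGCG or its reverse CGCGTG, which Myc also binds, the shares were 20.0% of all, 24.1% of the higher and 15.4% of the lower genes. These shares are a description of the letters, were not tested and say nothing of binding.

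Cytosolic ribosomal protein genes were higher for 15 of 23 tested and lower for none, with a median of 0.71. Rpl13a, of the large subunit, rose most, from 258, 222, 367 and 279.6 in control lung to 597, 1560.2, 1392 and 1300.3 in tumors 1 to 4, a difference of 2.04 ± 0.28 (adjusted p = 6.0e-05). Rps10, of the small subunit, rose by 1.19 ± 0.22 (adjusted p = 9.6e-04) and Rpsa, the laminin receptor of the small subunit, by 1.09 ± 0.21 (adjusted p = 0.0012). Ribosomal protein genes have many near-identical copies, so these values are less certain than the rest. Among translation factors and tRNA synthetases, 14 of 47 were higher and none was lower. The called ones included Eif2b1, a subunit of the exchange factor that recycles eIF2 (1.61 ± 0.27, adjusted p = 4.1e-04), Qars, which charges glutamine tRNA (1.27 ± 0.20, adjusted p = 2.3e-04), and Vars, which charges valine tRNA (1.23 ± 0.19, adjusted p = 2.3e-04). The number called depended on single arrays. Without tumor 1 it was 24 for translation and 18 for ribosomal proteins, without tumor 2 it was 9 and 9, and without tumor 4 it was 10 and 9.

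Enzymes that supply nucleotides, serine, one-carbon units and polyamines were higher for 14 of 27 and lower for 1, with a median of 0.72. Shmt1, which moves the one-carbon unit of serine to folate, was 77.5, 68.2, 56.9 and 67.1 in the control lungs and 252, 573, 337 and 814 in tumors 1 to 4. The groups did not overlap, and the difference was 2.64 ± 0.31 (adjusted p = 1.7e-05). Psat1, the second enzyme of serine synthesis, rose by 2.35 ± 0.31 (adjusted p = 4.5e-05), and Cad, which starts pyrimidine synthesis, by 1.30 ± 0.36 (adjusted p = 0.012). Odc1, the rate-limiting enzyme of polyamine synthesis and a classical Myc target, was 199, 167, 156 and 199 in control lung and 298, 372 and 372 in tumors 1, 2 and 4, with the value of tumor 3 missing, a difference of 0.95 ± 0.16 (adjusted p = 6.4e-04). The member that went the other way was Impdh1, the minor form of the enzyme that starts guanine nucleotide synthesis. It was 651, 542, 552 and 576 in control lung and 94.2, 179, 132 and 239 in the tumors, all below the lowest control lung, and fell by 1.93 ± 0.26 on the log2 scale (adjusted p = 6.6e-05).

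Of the genes of glycolysis and the pentose phosphate pathway, 10 of 21 were higher and 1 was lower, with a median of 0.73. Hk2, the inducible hexokinase, was 143, 178, 172 and 144 in the control lungs and 334, 432, 711 and 782 in the tumors, without overlap and lowest in tumor 1, and rose by 1.75 ± 0.24 (adjusted p = 7.7e-05). Ldha, which turns pyruvate into lactate, rose by 1.72 ± 0.17 (adjusted p = 3.1e-06) and Tpi1, triose phosphate isomerase, by 1.46 ± 0.14 (adjusted p = 2.9e-06). Pfkm, the muscle form of phosphofructokinase, was the lower one at -0.56 ± 0.19 (adjusted p = 0.04), a call that was lost without control lung 1, 3 or 4 or tumor 2, 3 or 4, at an adjusted p of up to 0.11. In fatty acid and sterol synthesis 5 of 26 were higher, a share near that of all probe sets, among them Me1, malic enzyme, at 1.84 ± 0.18 (adjusted p = 2.8e-06) and Fasn, fatty acid synthase, at 1.5 ± 0.28 (adjusted p = 9.9e-04). Fasn was 656, 747, 924 and 1062 in control lung and 2838, 3368, 2242 and 1435 in the tumors, lowest in tumor 4. Of 51 respiratory chain genes, 24 were higher, 2 were lower and 25 were not called, with a median of 0.43, led by Ndufb5 of complex I at 0.86 ± 0.15 (adjusted p = 6.0e-04) and Uqcrc2 of complex III at 0.85 ± 0.19 (adjusted p = 0.0032). The 2 lower ones, Cox6a2 at -2.89 ± 0.38 (adjusted p = 4.9e-05) and Cox8b at -1.13 ± 0.37 (adjusted p = 0.031), are the forms of cytochrome oxidase subunits found in heart and skeletal muscle. The count of 24 fell to 15 without control lung 1, 14 without control lung 2, 14 without tumor 2 and 15 without tumor 4, and the call of Cox8b was lost without control lung 1 or 4 or tumor 1 or 2, at an adjusted p of up to 0.11.

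Of 41 G2/M and mitosis genes, 15 were higher, none was lower and 26 were not called, with a median of 0.75. Cks1b, a small subunit of cyclin-dependent kinases, was 94.6, 118, 133 and 152 in the control lungs and 357, 1259, 880.4 and 793 in tumors 1 to 4, without overlap, and rose by 2.61 ± 0.31 (adjusted p = 1.7e-05). Its relative Cks2 rose by 2.22 ± 0.51 (adjusted p = 0.0039), Kif22, a motor that moves chromosome arms, by 2.18 ± 0.40 (adjusted p = 7.6e-04), Cdc20, the activator of the anaphase-promoting complex, by 2.00 ± 0.51 (adjusted p = 0.0081) and the kinase Nek6 by 1.70 ± 0.21 (adjusted p = 4.5e-05). Cdc20 was 149.8, 157, 166 and 167 in control lung and 400.2, 1741, 849 and 287 in the tumors, 6.06-fold apart between tumors 2 and 4. Cdk1, the main mitotic kinase, was under 70 in all control lungs (25.7, 35.7, 31.9 and 16.8) and 209, 513, 354 and 92.3 in the tumors, at least 3.48-fold higher (log2 fold change 1.80 ± 0.51, adjusted p = 0.015). The cyclin Ccnb2 was 200.3, 183, 202 and 318 in control lung and 642, 2058, 1618 and 296 in the tumors, where tumor 4 lay among the control lungs. The calls of Cdk1 and Ccnb2 were lost without tumor 2, with adjusted p of 0.052 and 0.053. The proliferation marker Mki67 was 31.6, 33.8, 23.7 and 14.8 in control lung and 120.2, 435, 224 and 50.6 in the tumors, every tumor above every control lung but tumor 4 still under 70, and its difference of 1.27 ± 0.59 (adjusted p = 0.12) was not called. Neither were those of the mitotic kinase Aurka (0.40 ± 0.32, adjusted p = 0.39) and of Birc5, survivin (0.80 ± 0.47, adjusted p = 0.22). The study reported both, Aurka as Stk6, higher in middle-sized tumors by array and by RT-PCR. Setting signals under 70 to 70 narrows the difference of a weak gene, and its part here was not tested. The lack of a call does not show these genes unchanged. Without tumor 2, 7 mitosis genes were called, and without tumor 3, 9.

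Of the DNA replication genes, 10 of 37 were higher and none was lower, but the median was only 0.26. Pold2, a subunit of DNA polymerase delta, rose by 1.36 ± 0.25 (adjusted p = 8.0e-04). The count was 6 without control lung 2, 5 without tumor 2 and 6 without tumor 3. Without control lung 3 or tumor 3, 1 replication gene was lower. Of 24 G1 regulators 4 were higher and 4 lower, shares near those of all probe sets, and the methods' t-test after adjustment called 0 higher and 2 lower. Those that rose were Tfdp1, the dimer partner of E2F (1.22 ± 0.25, adjusted p = 0.0018), Cdk4, the kinase of cyclin D (0.74 ± 0.18, adjusted p = 0.0063), Ccnd1, cyclin D1 (0.55 ± 0.15, adjusted p = 0.014), and the CDK inhibitor Cdkn1c (1.37 ± 0.35, adjusted p = 0.0088). Cdk4 was 782, 718, 829 and 1171 in control lung and 1120.4, 1679 and 1566 in tumors 1, 2 and 4, with the value of tumor 3 missing, with tumor 1 below control lung 4. The call of Ccnd1 was lost without tumor 2 (adjusted p = 0.051). Cdkn1c was 399, 456, 366 and 355 in control lung and 2234, 784, 448 and 1342 in the tumors, and tumor 3 lay within the control range. Those that fell were the retinoblastoma gene Rb1 (-1.24 ± 0.14, adjusted p = 9.1e-06), the CDK inhibitor Cdkn2d (-1.16 ± 0.32, adjusted p = 0.013) and the cyclins Ccnd3 (-0.97 ± 0.17, adjusted p = 7.8e-04) and Ccnd2 (-0.49 ± 0.16, adjusted p = 0.028), the last of which lost its call without control lung 2 or 3 or tumor 2, 3 or 4, at an adjusted p of up to 0.058. Cdkn2d was 250.4, 294, 212 and 104 in control lung and 36.4, 94.7, 141 and 14.9 in the tumors, with tumor 3 above control lung 4.

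Chaperones and chaperonins were higher for 12 of 33 and lower for 1, the small heat shock protein Hspb8 (-1.19 ± 0.40, adjusted p = 0.037), whose call was lost without control lung 1, 2 or 4 or tumor 1 or 4, at an adjusted p of up to 0.16. Hspa9, the mitochondrial Hsp70, was 483, 586, 617 and 518 in the control lungs and 852, 1371, 1193 and 2099.5 in tumors 1 to 4, without overlap, a rise of 1.25 ± 0.22 (adjusted p = 6.0e-04). Cct3 and Cct4, subunits of the ring that folds actin and tubulin, rose by 1.07 ± 0.23 (adjusted p = 0.0023) and 1.02 ± 0.20 (adjusted p = 0.0016). Proteasome subunits were called for 3 of 32, with a median of 0.29, and the count was 7 without control lung 3, 10 without tumor 1 and 15 with each array scaled to 1 median. Psma3, a subunit of the core ring, gave 0.59 ± 0.12 (adjusted p = 0.0013). Antioxidant genes went both ways, 11 higher and 5 lower of 34. The metallothioneins, which bind zinc and copper, were among the largest rises. Mt1 was 747, 676, 467 and 655 in control lung and 2219.5, 3558, 3801 and 6008 in tumors 1 to 4 (2.55 ± 0.25, adjusted p = 2.9e-06), and Mt2 was 1330.1, 1121, 795 and 993 and 4199, 5095, 6873 and 8691 (2.52 ± 0.23, adjusted p = 1.7e-06). In both genes tumor 4 was highest and tumor 1 lowest, and no tumor overlapped the control lungs. Mgst2, a microsomal glutathione transferase, was near the floor in control lung (78.1, 81.7, 81 and 70.1) and 989, 1119, 335 and 555 in the tumors, a rise of 3.12 ± 0.30 (adjusted p = 2.4e-06). The genes that fell were the secreted Sod3, extracellular superoxide dismutase (-2.15 ± 0.33, adjusted p = 1.8e-04), Gpx3, plasma glutathione peroxidase (-1.74 ± 0.33, adjusted p = 0.0013), Gsta3 (-2.11 ± 0.25, adjusted p = 2.0e-05) and Gsta2 (-1.59 ± 0.26, adjusted p = 3.2e-04), both glutathione transferases, and Gpx2 (-0.86 ± 0.23, adjusted p = 0.011).

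The largest rises outside the growth lists included genes known from the liver and an imprinted locus. Kng1, which encodes kininogen of the plasma, was 36.4, 35.7, 46.6 and 57.1 in the control lungs and 2741, 1076, 1558 and 1147 in tumors 1 to 4. All tumors were above all control lungs, at least 21.6-fold over the floor (log2 fold change 4.44 ± 0.35, adjusted p = 3.2e-07). Apob, the backbone protein of liver and gut lipoproteins, was 23.6, 8.48, 17.2 and 42.3 in control lung and 399, 2227, 422 and 1309.8 in the tumors, at least 12-fold higher (3.58 ± 0.58, adjusted p = 3.2e-04), with tumors 1 and 3 low and tumors 2 and 4 high. Apoc1, a small apolipoprotein, was 262, 234, 284 and 266 in control lung and 785, 1597, 1185 and 3386 in the tumors (2.52 ± 0.34, adjusted p = 6.4e-05). Genes such as Apob, under 70 in every control lung, passed the filter through tumors alone and could not be called lower. Of 47 liver, gut and stomach genes on the array, 21 were tested, 5 of them higher and 1 lower. The others that rose were Hgfac, the activator of hepatocyte growth factor (2.51 ± 0.27, adjusted p = 7.6e-06), Itih2, an inter-alpha-trypsin inhibitor chain (2.09 ± 0.33, adjusted p = 2.7e-04), and Rbp4, the plasma carrier of retinol (1.59 ± 0.23, adjusted p = 1.2e-04). The lower one was Prom1, prominin, at -1.04 ± 0.36 (adjusted p = 0.038), whose call was lost without any 1 control lung or without tumor 2, 3 or 4, at an adjusted p of up to 0.13. Tumor 1 was above every control lung for Prom1, at 358 against 281, 259, 297 and 267. Cideb, of the family of lipid droplet proteins and named for an effect on cell death, was 5.16, 9.81, 4.79 and 7.15 in control lung and 139, 299, 182 and 576 in the tumors, at least 3.66-fold higher (1.87 ± 0.38, adjusted p = 0.0019).

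Dlk1, an imprinted gene for a membrane protein related to Notch ligands, had the largest rise of the genes detected in both groups that are given here. It was 164, 118, 123 and 201 in the control lungs and 6297, 560.3, 3829.8 and 1580.0 in tumors 1 to 4. No tumor overlapped the control lungs, but tumors 1 and 2 differed 11.2-fold, and the difference was 3.86 ± 1.03 (adjusted p = 0.011). Its imprinted neighbor Meg3, a long noncoding RNA, was 15.9, 16, 16.5 and 32.7 in control lung and 3811, 197 and 2453 in tumors 1, 2 and 4, with the value of tumor 3 missing. The tumors were at least 17.5-fold higher (4.13 ± 1.31, adjusted p = 0.028), but this call was lost without any 1 control lung or without tumor 1 or 4, at an adjusted p of up to 0.095. The second Meg3 probe set gave 3.32 (adjusted p = 0.076), not called. Both genes lie on chromosome 12, Dlk1 at chr12:109452485-109463336 and Meg3 at chr12:109540996-109571729 (GRCm38.p6), 77659 bases apart. The highest level of each was in tumor 1. Among the small pools Dlk1 was 2889.9, 158 and 167 and among the large tumors 163, 3629 and 1854, so both of these groups also held arrays near the control level. Arg2, mitochondrial arginase, was 83.4, 89.7, 86.6 and 72.7 in control lung and 307, 922, 1445 and 997 in tumors 1 to 4 (3.27 ± 0.42, adjusted p = 3.6e-05), and Lcn2, a secreted protein that binds iron carriers, was 757, 566, 482 and 258 and 3503, 3326 and 2371 in tumors 1, 2 and 4, with the value of tumor 3 missing (2.65 ± 0.34, adjusted p = 5.0e-05). Col15a1, a basement membrane collagen, rose from 72.6, 57, 124 and 113 to 740.4, 258, 636 and 226 (2.15 ± 0.36, adjusted p = 4.3e-04). It was the only one of the 35 fibroblast and matrix genes tested that was higher.

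Of 11 markers of alveolar type II cells tested, 6 were higher and none was lower, with a median of 0.63. Muc1, a membrane mucin, was 1231, 1496, 1799.5 and 1682 in the control lungs and 4014, 4819, 3645 and 2827 in tumors 1 to 4 (1.29 ± 0.19, adjusted p = 1.4e-04). Lpcat1, which makes the main surfactant phospholipid, rose by 1.11 ± 0.24 (adjusted p = 0.003), Napsa, the protease of surfactant protein B, by 0.76 ± 0.25 (adjusted p = 0.029), and Sftpb, surfactant protein B, by 0.63 ± 0.21 (adjusted p = 0.038). The value of tumor 3 is missing for Lpcat1 and Sftpb. The call of Napsa was lost without any 1 control lung or without tumor 1 or 2 (adjusted p up to 0.099) and that of Sftpb without control lung 1 or 3 or tumor 2 or 4 (up to 0.12). Surfactant protein C gave 0.02 ± 0.21 (adjusted p = 0.97). The count was 3 without control lung 1, 3 without control lung 3 and 3 without tumor 2. The summed signal of the 8 markers with a value on every array was 24462 to 32805 in control lung and 28974 to 48453 in the tumors.

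Transcription factors of lung and epithelium were 6 higher and 13 lower of 34. Elf5, an ETS factor of secretory epithelia, was 258, 243, 231 and 176 in the control lungs and 1078, 1091, 1223 and 2107 in tumors 1 to 4, a rise of 2.55 ± 0.21 (adjusted p = 5.6e-07) without overlap. Cebpa, a factor of type II cell maturation, was 1769, 2058, 1539 and 1741 and 4542, 5659, 4224 and 4002 (1.37 ± 0.14, adjusted p = 5.2e-06), and Elf3, another epithelial ETS factor, rose by 1.43 ± 0.27 (adjusted p = 9.5e-04). Klf5 (0.88 ± 0.16, adjusted p = 7.9e-04), Foxa1 (0.74 ± 0.21, adjusted p = 0.014) and Sox4 (0.50 ± 0.13, adjusted p = 0.011) rose by less, and Sox4 lost its call without tumor 2 (adjusted p = 0.051). The factors that fell most were Klf4 (-3.14 ± 0.29, adjusted p = 1.6e-06), Tbx2 (-2.71 ± 0.23, adjusted p = 5.8e-07), Foxf1 (-2.45 ± 0.14, adjusted p = 1.3e-08) and Hey1 (-1.92 ± 0.27, adjusted p = 7.7e-05). Klf4, which restrains division in many epithelia, was 1029, 946, 967 and 1652 in control lung and 98.5, 94.8, 139.8 and 198 in the tumors. Foxf1 is a factor of lung mesenchyme and endothelium and was under 70 in every tumor, at least 5.47-fold lower, as was Tbx3, at least 3.02-fold lower. Of the factors called lower, Tbx2, Tbx3, Foxf1, Foxf2 and Meis1 are known from mesenchyme, as is Tcf21 among the fibroblast markers.

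Junction and keratin genes of epithelia were higher for 14 of 26, with a median of 0.65. Cldn2, a claudin of leaky epithelia, was 8.03, 7.48, 5.71 and 11.6 in the control lungs and 63.1, 688, 431 and 736 in tumors 1 to 4. Tumor 1 stayed under 70 although above every control lung, and the difference was 2.33 ± 0.59 (adjusted p = 0.0081). The desmosomal cadherin Dsg2 rose by 1.77 ± 0.22 (adjusted p = 2.5e-05), the simple epithelial keratin Krt18 by 1.66 ± 0.22 (adjusted p = 4.4e-05) and the adhesion molecule Epcam by 1.65 ± 0.19 (adjusted p = 1.3e-05). Epcam was 151, 122, 140.3 and 107 in control lung and 439, 438, 454 and 311 in the tumors. Jup, plakoglobin (-1.19 ± 0.30, adjusted p = 0.0081), and Tjp1, the tight junction scaffold ZO-1 (-0.97 ± 0.14, adjusted p = 9.8e-05), fell. E-cadherin, Cdh1, was 367, 360.4, 281 and 569 in control lung and 421, 296, 417 and 246 in the tumors, a difference of -0.18 ± 0.25 (adjusted p = 0.62) that was not called and that turned to 0.0099 without control lung 4.

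Most markers of alveolar type I cells fell. Of 8 tested, 7 were lower and none was higher, with a median of -2.20. Pdpn, podoplanin, was 602, 758, 672 and 612 in the control lungs and 62.2, 54.3, 74.2 and 65.9 in tumors 1 to 4, without overlap (-3.21 ± 0.14, adjusted p = 1.8e-09). Spock2, an extracellular proteoglycan, was 1724, 2061, 1786 and 1566 and 204, 144, 195 and 62.1 (-3.65 ± 0.30, adjusted p = 5.3e-07), the caveolar protein Cav1 fell by 2.39 ± 0.41 (adjusted p = 6.2e-04), and Igfbp6 gave -3.26 ± 0.37 (adjusted p = 1.2e-05). Ager, the receptor that marks type I cells most clearly, was 6129, 7199, 4502 and 6404 in control lung and still 2861, 2624, 2556 and 3206 in the tumors, a smaller fall of 1.09 ± 0.17 (adjusted p = 1.8e-04). Cav1 and Igfbp6 are also made by endothelium and fibroblasts. In whole tissue, fewer cells of a type and less RNA per cell cannot be told apart.

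Airway genes were uneven. Of 12 markers of club cells, the secretory cells of the bronchioles, 6 were lower and none was higher. The flavin monooxygenase Fmo1 was 3027, 3229, 2404 and 2391 in the control lungs and 305, 73.2, 502 and 188 in tumors 1 to 4 (-3.68 ± 0.43, adjusted p = 1.7e-05). The cytochrome Cyp2b10 gave -2.53 ± 0.45 (adjusted p = 6.4e-04) and the retinal dehydrogenase Aldh1a1 -2.16 ± 0.39 (adjusted p = 7.0e-04). Their defining product Scgb1a1 was 8532, 10599, 5859 and 10856 in control lung and 8472, 8791, 6894 and 4833 in the tumors, a difference of -0.30 ± 0.36 (adjusted p = 0.56) that was not called, and Cyp2f2 was 5057, 6108, 4119 and 6472 and 5430.1, 4868, 3054 and 796, high in tumors 1 and 2 and lowest in tumor 4. The summed signal of the club list was 31873 to 46432 in control lung and 11955 to 31609.7 in the tumors. None of the 9 ciliated cell markers was called either way. Their master regulator Foxj1 was 662, 569.6, 394 and 695 in control lung and 1116, 249.5, 229 and 168 in the tumors, above every control lung in tumor 1 and below every one in the other 3. Without tumor 1, 4 ciliated markers were lower.

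The lowest median of the lists was that of endothelial genes. Of 31 markers tested, 28 were lower and none was higher, with a median of -2.84, against 0.02 for all probe sets. Ramp2, a partner of the adrenomedullin receptor, was 4082, 5394, 3174 and 3517 in the control lungs and 318, 178, 198 and 146 in tumors 1 to 4. Every tumor was far below every control lung, a 19.7-fold fall (-4.30 ± 0.25, adjusted p = 1.8e-08). Cldn5, the claudin of endothelial tight junctions, was 3115, 3489, 3046 and 3192 and 139, 161, 260.1 and 162 (-4.19 ± 0.25, adjusted p = 2.0e-08), and VE-cadherin, Cdh5, was 3362, 2964, 2802 and 2241 and 404, 258, 321 and 166 (-3.37 ± 0.27, adjusted p = 3.8e-07). The anticoagulant receptor Thbd gave -4.33 ± 0.23 (adjusted p = 8.9e-09), the receptor tyrosine kinase Tie1 -3.72 ± 0.29 (adjusted p = 3.4e-07), the water channel Aqp1 -3.53 ± 0.37 (adjusted p = 5.5e-06), and von Willebrand factor, Vwf, -2.95 ± 0.24 (adjusted p = 4.0e-07). Icam2 was under 70 in all tumors and at least 17.2-fold lower. The VEGF receptor Kdr was 501, 506, 601 and 384 in control lung and 128, 107, 77.9 and 100.3 in the tumors (-2.27 ± 0.20, adjusted p = 8.3e-07). The probe set for Pecam1, usually a defining endothelial marker, was weak in both groups, 78.8, 91, 80.6 and 162 and 72.7, 146, 154 and 138, and was not called. The summed endothelial signal was 35045 to 44565 in control lung and 4403 to 5635 in the tumors.

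**Figure D3:**
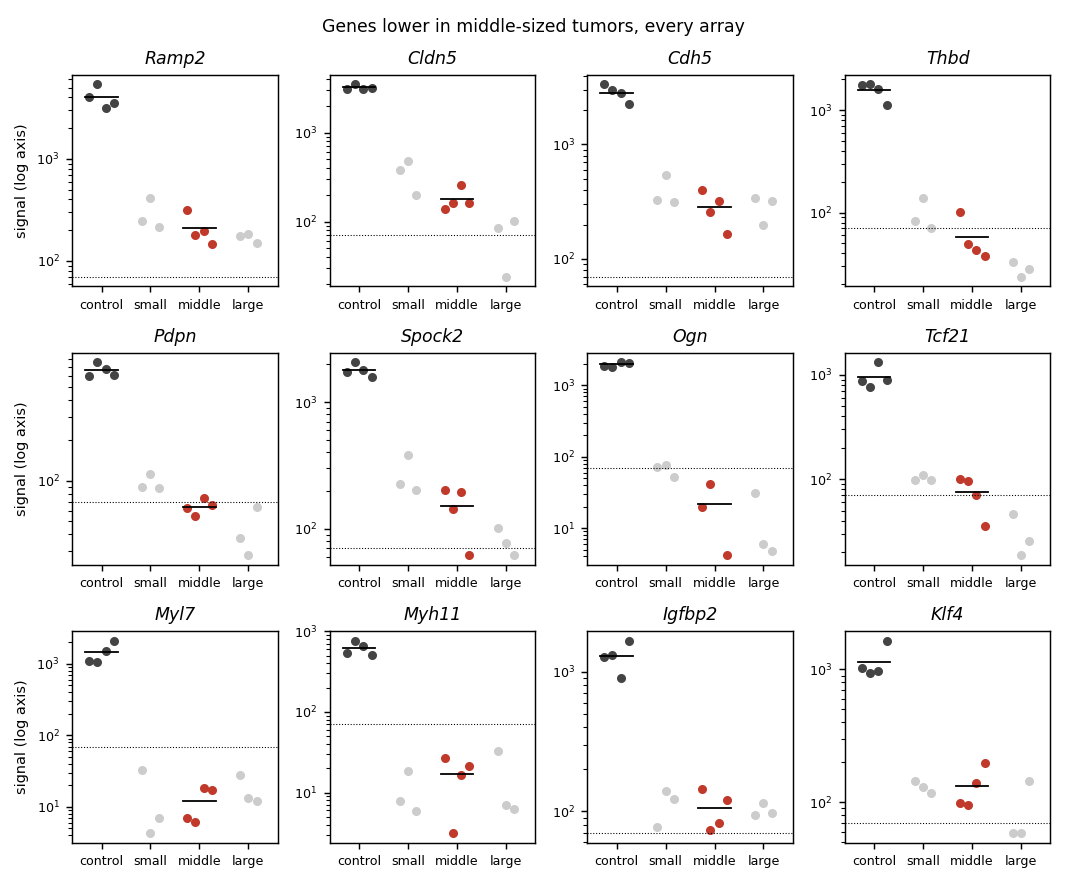
Signal of 12 genes that were lower in middle-sized tumors on a log axis, 1 point per array, in the colors and with the bars and the dotted line at 70 of the plot of rising genes. All red points lie below all dark points in every panel, the value of tumor 3 is missing for Ogn, and within the endothelial genes of the top row the 4 tumors lie close together compared with their distance from control lung.

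Muscle genes were mostly lower as well. Smooth muscle markers were lower for 11 of 11, with Myh11, smooth muscle myosin, at 542, 767, 659.7 and 512 in the control lungs and 26.7, 3.14, 16.8 and 21.5 in tumors 1 to 4, at least 8.74-fold lower, and Acta2, smooth muscle actin, at -2.26 ± 0.17 (adjusted p = 2.9e-07). Cardiac muscle genes, which mouse lung carries because cardiomyocytes sheathe its veins, were lower for 14 of 16. Of the 13 with a value on every array, 9 were under 70 in every middle-sized tumor. Those that passed the filter through the control lungs alone could not be called higher, so this count is partly set by the filter. The atrial myosin light chain Myl7 was 1098, 1052, 1507 and 2119.6 in control lung and 7.03, 6.12, 18.4 and 17.5 in the tumors, at least 19.8-fold lower, and Myl4 was at least 14.8-fold lower. In both, control lung 4 had the highest level. Of 35 fibroblast and matrix genes, 18 were lower and 1 was higher. Ogn, a small matrix proteoglycan, had the largest lower bound on a fall, from 1894, 1821, 2101 and 2088 to 19.6, 41 and 4.20 in tumors 1, 2 and 4, with the value of tumor 3 missing, at least 28.2-fold. Tcf21, a factor of lung fibroblasts, was 869.9, 759, 1314 and 899 in control lung and 100.2, 96.2, 71.3 and 35.6 in the tumors (-3.50 ± 0.19, adjusted p = 1.1e-08). Both mesothelial markers tested fell, the uroplakin Upk3b by 2.67 ± 0.29 (adjusted p = 8.7e-06) and mesothelin, Msln, by 1.45 ± 0.14 (adjusted p = 2.4e-06).

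Genes of red blood cells were lower for 5 of 7. Alas2, the heme enzyme of erythroid cells, was 2453, 2817, 1205 and 1358 in the control lungs and 71.3, 93.3, 25.4 and 41.8 in tumors 1 to 4 (-4.60 ± 0.30, adjusted p = 4.4e-08), and the globin Hba-a1 was 9317, 12289, 6283 and 12139 and 1275, 2012, 2086 and 1158 (-2.62 ± 0.29, adjusted p = 9.3e-06). The summed erythroid signal was 13534 to 24824 in control lung and 2085 to 3753 in the tumors. Neutrophil and mast cell markers were lower for 5 of 13. Kit, the receptor of stem cell factor on mast cells, was 753, 815, 809 and 596 in control lung and 58.6, 58.3, 55.3 and 52.8 in the tumors, at least 10.5-fold lower (-3.40 ± 0.17, adjusted p = 4.5e-09). S100a8, a neutrophil protein, was 2061, 2271, 310.0 and 234 in control lung, high in control lungs 1 and 2 only, and 55.9, 46.9, 268 and 69.6 in the tumors, and its call (-2.96 ± 0.97, adjusted p = 0.03) was lost without control lung 1 or 2 or tumor 1, 2 or 4, at an adjusted p of up to 0.098. The neutrophil and mast cell count was 2 without control lung 1, 2 without control lung 2, 3 without tumor 2 and 3 without tumor 4.

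Interferon-inducible genes were mostly lower. Of 28 tested, 23 were lower and 1 was higher, with a median of -0.88. The GTPase Gbp2 was 420.3, 426, 612 and 410.2 in the control lungs and 93.7, 97.4, 54.1 and 107 in tumors 1 to 4, without overlap (-2.34 ± 0.19, adjusted p = 3.6e-07). Ifit3 was under 70 in every tumor and at least 3.61-fold lower (-1.85 ± 0.18, adjusted p = 2.5e-06), Psmb9, a subunit of the immunoproteasome, gave -1.61 ± 0.31 (adjusted p = 0.0013), and the factor Irf8 -1.57 ± 0.19 (adjusted p = 2.1e-05). Psme1, a proteasome activator, was the one that rose, from 746, 805, 809 and 796 to 1640.3, 1758, 1279 and 1641 (0.99 ± 0.13, adjusted p = 3.8e-05). MHC class II genes went the other way, with 5 of 10 higher and 1 lower. H2-Ea was 1256, 874, 1749.6 and 1749 in control lung and 4032, 5753, 5410.3 and 2466 in the tumors (1.63 ± 0.32, adjusted p = 0.0013). H2-Ab1, a chain of the I-A molecule, was 876, 1016, 1446 and 1167 and 3622, 3999, 2739 and 1121, with tumor 4 within the control range, and its call (1.22 ± 0.37, adjusted p = 0.02) was lost without control lung 1 or tumor 2, at an adjusted p of up to 0.067. H2-Aa, the other chain, was 2031, 2118, 2036 and 2120.2 in control lung and 5271, 5243, 4379.7 and 1778 in the tumors, with tumor 4 below every control lung, and was not called (0.88 ± 0.33, adjusted p = 0.053). H2-Ob, which holds back peptide loading in B cells, fell by 0.85 ± 0.14 (adjusted p = 4.6e-04). The class II count was 3 without control lung 1 and 2 without tumor 2.

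Lymphocyte and NK cell markers were lower for 8 of 18 and higher for none, among them the chemokine Ccl5, at least 3.71-fold lower (-1.89 ± 0.20, adjusted p = 6.5e-06), lymphotoxin beta, Ltb (-1.77 ± 0.31, adjusted p = 5.5e-04), and Cd79a of the B cell receptor (-1.62 ± 0.23, adjusted p = 8.8e-05). Macrophage markers were mixed, with 2 higher and 6 lower of 27 and a summed signal of 17887 to 21038 in control lung and 17688 to 20900.5 in the tumors. Mmp12, macrophage elastase, was 200.1, 118, 390.1 and 152 in the control lungs and 963, 1346, 1159.7 and 522 in tumors 1 to 4 (2.28 ± 0.43, adjusted p = 0.0011), and the lipopolysaccharide receptor Cd14 was 694, 699.6, 804 and 688 and 1673, 1588, 3012 and 1563 (1.39 ± 0.19, adjusted p = 7.4e-05). Cd53 (-1.25 ± 0.25, adjusted p = 0.0015), Tyrobp (-1.16 ± 0.29, adjusted p = 0.0066) and the receptor of colony stimulating factor, Csf1r (-1.06 ± 0.19, adjusted p = 6.0e-04), fell.

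Among growth factor receptors and ligands, 3 were higher and 15 lower of 27. Erbb3, a receptor of neuregulin, was 825, 832, 862 and 595 in the control lungs and 1513, 1671, 2536 and 1974 in tumors 1 to 4, without overlap (1.29 ± 0.17, adjusted p = 5.4e-05), and Fgfr2, a receptor of lung epithelium for fibroblast growth factors, was 1127, 1211, 1363 and 1279 and 2979.9, 2815, 1219.9 and 3148, with tumor 3 in the control range (0.94 ± 0.26, adjusted p = 0.013). Igf2r, which takes up and removes IGF2, rose by 0.54 ± 0.14 (adjusted p = 0.011). Igfbp2, a binding protein of insulin-like growth factors, was 1264, 1307, 901 and 1667 in control lung and 145, 73.7, 82.7 and 121 in the tumors (-3.63 ± 0.26, adjusted p = 1.4e-07), and the ligand of Kit, Kitl, fell by 2.30 ± 0.38 (adjusted p = 3.6e-04). Of the TGF-beta and BMP genes, 3 were higher and 10 lower of 33. The ligand Bmp6 was 986, 1065, 1076 and 825 and 55.9, 26.2 and 20.6 in tumors 1, 2 and 4, with the value of tumor 3 missing, at least 14-fold lower, Smad6, which inhibits BMP signals, gave -2.55 ± 0.23 (adjusted p = 1.5e-06), and Tgfb1 gave -1.94 ± 0.24 (adjusted p = 2.7e-05). Inhbb, an activin subunit, rose by 2.11 ± 0.55 (adjusted p = 0.01), but lost its call without tumor 2 (adjusted p = 0.053), and Tgif1, a corepressor of SMADs, rose by 0.99 ± 0.16 (adjusted p = 3.5e-04).

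AP-1 and other immediate early genes, which respond within minutes to growth factors, were lower for 9 of 21 and higher for none, with a median of -0.60. Jun was 484, 598, 435 and 510.5 in the control lungs and 109, 132, 317 and 227 in tumors 1 to 4, without overlap and highest in tumor 3 (-1.49 ± 0.34, adjusted p = 0.0036). Fos was 1031, 843, 773 and 565 in control lung and 327, 208 and 401 in tumors 1, 2 and 4, with the value of tumor 3 missing (-1.38 ± 0.35, adjusted p = 0.0084), and the nuclear receptor Nr4a1 gave -1.55 ± 0.29 (adjusted p = 0.001). Egr1 was 269, 278, 299.7 and 339.9 in control lung and 142, 203, 389 and 82.4 in the tumors, with tumor 3 above every control lung, and was not called. Of the matrix metalloproteinases, cathepsins and their inhibitors, 5 were higher and 7 lower of 27, and the lower count was 4 without control lung 2. Plat, tissue plasminogen activator, gave -1.96 ± 0.37 (adjusted p = 9.4e-04) and the inhibitor Timp2 -1.83 ± 0.19 (adjusted p = 3.9e-06), whereas Ctsz (1.03 ± 0.17, adjusted p = 4.2e-04) and Ctsh (0.76 ± 0.21, adjusted p = 0.012), both cathepsins, rose.

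Of 38 genes of apoptosis and DNA damage, 10 were lower and 5 higher. Capn2, a calpain, was 681, 918, 632 and 396 in the control lungs and 204, 265, 204 and 199 in tumors 1 to 4 (-1.54 ± 0.30, adjusted p = 0.0014), and Ddit3, a stress factor also called CHOP, was 154, 174, 176 and 279.9 and 24.3, 68.3, 73.6 and 60.7 (-1.43 ± 0.17, adjusted p = 1.8e-05). Gadd45b, a stress-induced gene, gave -1.11 ± 0.28 (adjusted p = 0.0079). Beside Cideb the genes that rose were Aifm1, a mitochondrial oxidoreductase of cell death (0.85 ± 0.20, adjusted p = 0.0045), and Perp (0.98 ± 0.34, adjusted p = 0.039), Gadd45a (0.68 ± 0.24, adjusted p = 0.042) and Gadd45g (1.23 ± 0.45, adjusted p = 0.049), all known as stress-induced genes. These 3 lost their calls without control lung 1, 2 or 4 or tumor 3 or 4, and Perp and Gadd45a also without control lung 3, at an adjusted p of up to 0.12 for Perp and Gadd45a and 0.14 for Gadd45g. Without control lung 1, 2 or 4 or tumor 3 or 4, 2 genes of the list were higher, and without control lung 3, 3. Perp was 273, 215, 212 and 269 in control lung and 245, 315, 904 and 732 in the tumors, high in tumors 3 and 4 and near the control range in tumors 1 and 2.

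The other large falls were in genes outside these lists, and 10 genes that the study itself names for these tumors complete the account. Cavin2, a coat protein of caveolae, was 2210.1, 2074, 1951 and 1975 in the control lungs and 150.0, 86.5 and 245 in tumors 1, 2 and 4, with the value of tumor 3 missing (-3.80 ± 0.33, adjusted p = 1.6e-06). Cdo1, cysteine dioxygenase, was 1629.9, 1840.4, 1265 and 984 and 72.2, 70.03, 217 and 148 (-3.62 ± 0.33, adjusted p = 1.6e-06). Pip4k2c, a lipid kinase, gave -3.58 ± 0.38 (adjusted p = 1.0e-05) on a probe set whose suffix marks it as less specific, while its other probe set gave 0.51 (adjusted p = 0.1), so its direction is uncertain. For Tie1 and Ogn a second probe set fell as well, by 3.01 and 4.43. Not every call above was shared by a second probe set, and the following cases are examples, not a full list. Those of Cdk4 (0.95, adjusted p = 0.068), Ccnd1 (0.43, adjusted p = 0.22), Sox4 (0.29, adjusted p = 0.81), Mmp12 (1.39, adjusted p = 0.077) and Gadd45b (-0.64, adjusted p = 0.11) went the same way but were not called. Of the further Fgfr2 probe sets, 1 gave 1.39 (adjusted p = 0.0015) and 1 gave 0.70 (adjusted p = 0.19). Further Cct3 probe sets gave 0.76 (adjusted p = 0.16) and 0.77 (adjusted p = 0.018). For Lcn2 a second, weak probe set (82.1 to 155 in control lung, 80.5 to 208 in the tumors) gave 0.12 and was not called. Nor were those of Prom1 (-0.36, adjusted p = 0.54), Cav1 (-0.13, adjusted p = 0.54) and Spock2 (-0.35, adjusted p = 0.30). The second Thbd probe set fell by only 1.18 (adjusted p = 0.0091). 

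Among the genes the study names, the mitotic spindle protein Prc1 rose by 1.32 ± 0.39 (adjusted p = 0.018) and the cytokinesis factor Ect2 by 1.32 ± 0.46 (adjusted p = 0.039). The call of Prc1 was lost without tumor 2 or 3 (adjusted p up to 0.054) and that of Ect2 without any 1 control lung or without tumor 2 or 3 (up to 0.13). Those that fell were moesin, Msn, which links membrane and actin (-0.83 ± 0.18, adjusted p = 0.0028), the transcription factors Gata3 (-0.65 ± 0.19, adjusted p = 0.017), Klf7 (-1.35 ± 0.18, adjusted p = 4.4e-05) and the endothelial Sox18 (-2.84 ± 0.28, adjusted p = 3.0e-06), the growth arrest gene Gas1 (-2.21 ± 0.16, adjusted p = 2.0e-07) and the Hippo kinase Lats2 (-1.70 ± 0.28, adjusted p = 4.6e-04). Gata3 was under 70 in every tumor, so the floor set its tumor level and its fall is a lower bound. The acidic nuclear phosphoprotein Anp32a gave -0.44 ± 0.16 (adjusted p = 0.048), a call lost without control lung 1, 2 or 3 or tumor 3 or 4 (up to 0.13), while its second probe set fell by 1.99 (adjusted p = 0.028). Bnip2, a partner of BCL2 family proteins, gave -0.36 ± 0.45 (adjusted p = 0.59) on 1 probe set, not called, and -1.60 (adjusted p = 4.7e-05) on the other, so its 2 probe sets disagree. Zbtb17 and Nr2f1 were too low to be tested. Of the 6128 genes tested with 1 symbol, 129 were called, at least 70 on every control array and under 70 in every tumor with a value. Another 31 were called and went from under 70 in every control lung to at least 70 in every tumor with a value.

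The 4 tumors did not show the rises to the same extent. Over the 27 endothelial genes with a value on every array, the mean log2 level minus the control mean was -2.43, -2.76, -2.64 and -2.65 in tumors 1 to 4, with 16 of the genes at or above 70 in every tumor and 4 under 70 in every tumor. Of 13 cardiac muscle genes 9 were under 70 in every tumor, so that the floor sets their mean and the tumors cannot be compared for that list. For ribosome biogenesis (34 genes) it was 0.32, 1.14, 0.67 and 1.31, and for nucleotide and serine enzymes (20 genes) 0.30, 1.13, 0.64 and 1.10, lowest in tumor 1, which also had the lowest Myc signal. Mitosis genes (36) stood at 0.63, 1.70, 1.21 and 0.27, so tumor 4 was highest for ribosome biogenesis but lowest for mitosis. Ribosomal proteins (15 genes) stood at 0.23, 0.83, 0.76 and 0.83, with tumor 1 above every control lung. Translation factors (40 genes) stood at 0.07, 0.56, 0.38 and 0.63, with tumor 1 within the control range. MHC class II (10 genes) stood at 0.89, 1.01, 0.74 and -0.11 and type II markers (8 genes) at 0.78, 0.95, 0.55 and 0.08, with tumor 4 near the control lungs in both. Ciliated markers (8 genes) stood at 1.03, -0.49, -0.50 and -0.67 and club markers (12 genes) at -0.56, -1.55, -1.11 and -2.05, highest in tumor 1. AP-1 genes (18 genes) stood at -0.97, -1.10, -0.13 and -0.79, near the control level in tumor 3 alone. These are single tumors with 1 array each, so the differences among them have no replicate check and were not tested. In tumor 1 the airway lists were highest and the ribosome, nucleotide and translation lists lowest, and the part of the one in the other was not tested.

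**Figure D4:**
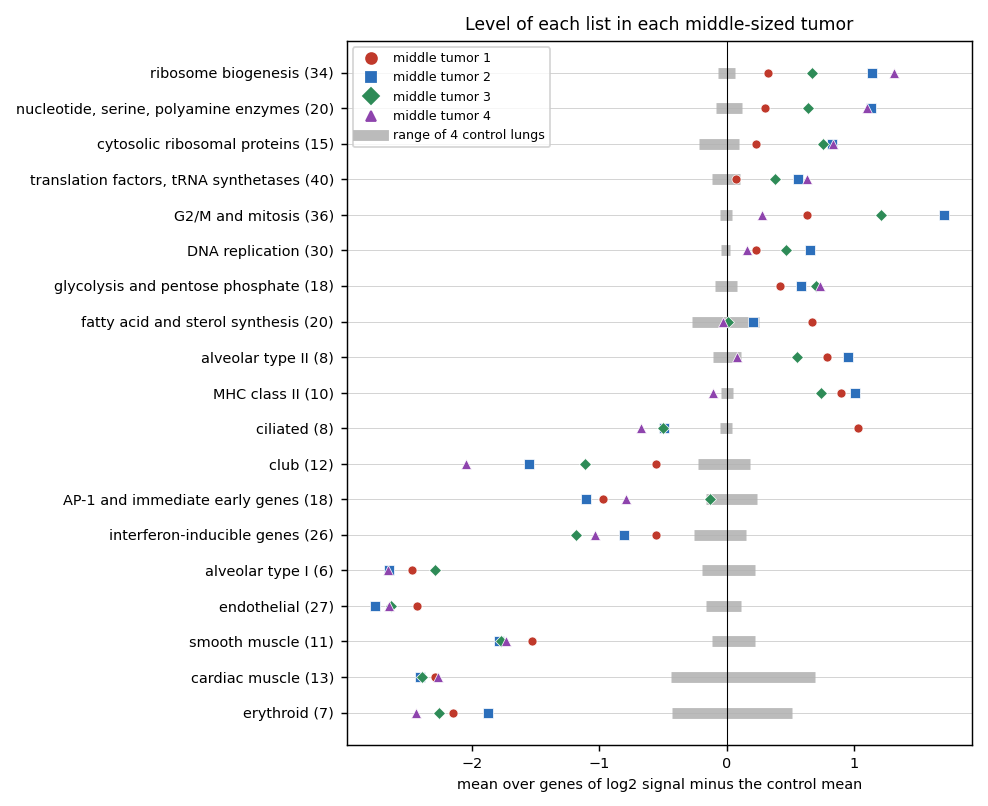
Mean over the genes of a list (number with a value on all arrays in parentheses) of the log2 signal minus the mean of the control lungs, 1 marker per middle-sized tumor, with a grey bar for the range of the 4 control lungs. Signals under 70 count as 70, which holds the markers of lists such as cardiac muscle together. The markers lie apart for ribosome biogenesis, mitosis and ciliated genes, the last with tumor 1 at 1.03 and the others between -0.67 and -0.49.

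Single genes varied more. Among genes with 4 values and a signal of at least 280 in 1 tumor, the largest spread was in Sox2, a factor of airway epithelium, at 1853, 497, 60.4 and 71.6 in tumors 1 to 4 against 752, 578, 664 and 461 in the control lungs. Tumor 1 was above every control lung, tumor 2 within their range and tumors 3 and 4 near or under 70. Other genes highest in tumor 1 and next in tumor 2 were Pon1, paraoxonase (2719, 471, 199.6 and 58.3), the cholecystokinin receptor Cckar (1683, 565, 62.7 and 31.7), and Myb (1029, 100.5, 31 and 19), a factor that acts in the making of cilia. In these tumor 4 was lowest, though signals under 70 carry no order, whereas in Sox2 tumor 3 was lowest. Irx3, a homeobox factor, was 1758, 1429, 944 and 81.2, ornithine aminotransferase, Oat, 1973, 2012, 806 and 129 and the adhesion molecule Cadm1 1925, 1356, 1087 and 96.4, all with tumor 4 far below the rest. Reg3g, an antibacterial lectin, was 8.43, 7.82, 171 and 1087 and exceeded all control lungs (77.7, 82.3, 229 and 204) in tumor 4 only. Zbtb16, a zinc finger factor induced by glucocorticoids, was 65.2, 36.6, 1168 and 497, and its control lungs also varied, at 1590.3, 1649, 593 and 178. The probe set for Myh7, a cardiac myosin that can share sequence with its relatives, was 172, 1071, 339 and 2957, with tumors 2 and 4 above every control lung (656, 604, 707 and 1032), whereas the atrial form Myh6 was under 70 in all tumors.

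**Figure D5:**
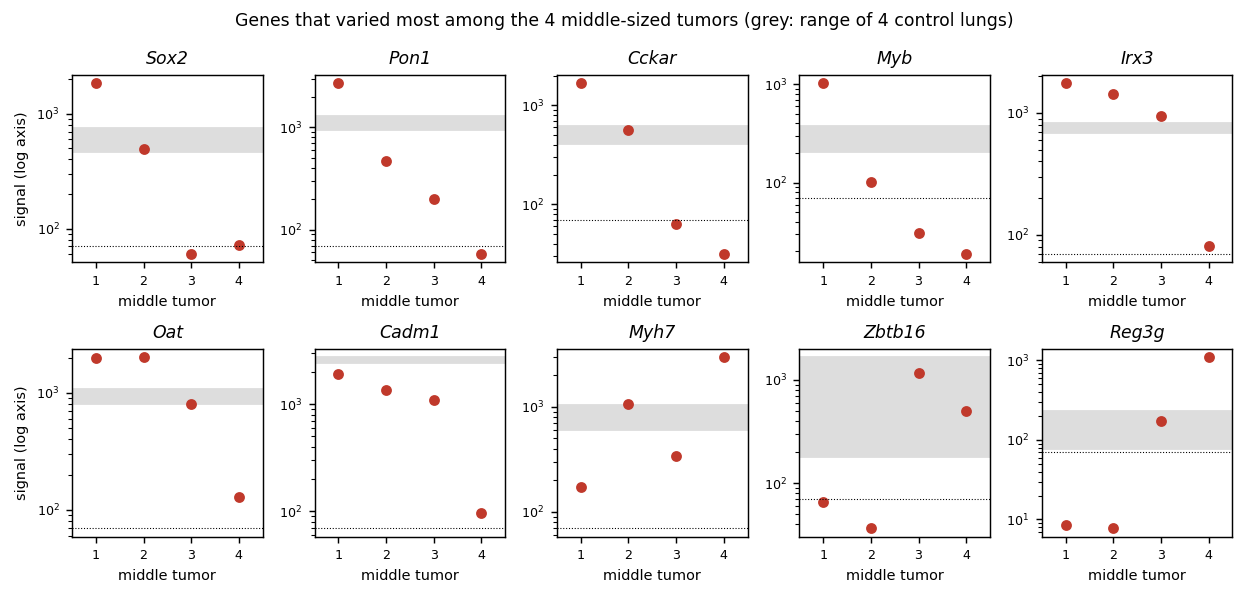
Signal on a log axis in each of the 4 middle-sized tumors for the 10 genes that varied most among them, with a grey band for the range of the 4 control lungs and a dotted line at 70. Sox2, Pon1, Cckar and Myb are highest in tumor 1, and Irx3, Oat and Cadm1 are lowest in tumor 4.

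The middle size was then compared directly with the others, since all sizes share the same control lungs. Between middle-sized and small tumors, 0 of 6914 probe sets were called by limma (0%), with 449 at an unadjusted p under 0.05, 139 of them higher in the middle size, and a lowest adjusted p of 0.29. Between middle-sized and large tumors 0 were called (0%), with 677 at an unadjusted p under 0.05, 315 of them higher in the middle size, and a lowest adjusted p of 0.22. The median SE of these differences was 0.22 in both, close to the 0.20 against control lung. A failure to pass after adjustment over all probe sets does not show the sizes to be alike. Myc was 1738, 1391 and 1417 in the small pools and 2165, 2008 and 1055 in the large tumors, so that tumors 1, 3 and 4 lay below every array of the other sizes. The difference was -1.30 (95% interval -2.01 to -0.60) against small and -1.44 (95% interval -2.15 to -0.74) against large tumors, intervals that are not adjusted for the number of probe sets, and the adjusted p were 0.66 and 0.28. These and the following intervals use the normal distribution, so they are somewhat narrower than the t distribution of the limma test would give. Kng1 was 1268, 813 and 879 in the small pools and 664, 230.4 and 759.8 in the large tumors, and every middle-sized tumor lay above every large one, a difference of 1.63 (95% interval 0.90 to 2.37). For the endothelial gene Cldn5 the differences were -0.92 (95% interval -1.45 to -0.38) and 1.06 (95% interval 0.52 to 1.59), and for Elf5 0.05 (95% interval -0.40 to 0.51) and -0.04 (95% interval -0.49 to 0.41). Against large tumors, 1 probe set was called when tumor 1 was left out. When tumor 4 was left out, 10 of 6904 tested were called, 4 lower and 6 higher in the middle size, and the part of that tumor was not tested. The largest in each direction, named after their values were seen, were Inmt, a methyltransferase, with a log2 difference of 2.41 ± 0.38 (adjusted p = 0.038), and Impdh1, with -1.49 ± 0.26 (adjusted p = 0.043).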

How the data were processed

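Gene expression was measured on 14 Affymetrix arrays with 12488 probe sets each. Per the labels and the study's methods, the deposited intensity of a probe set is the linear signal of the authors' MAS 5 algorithm, scaled on each array to a target of 250, and no detection calls were used here. After 66 control probe sets were left out, 12422 remained, of which 10833 had 1 gene symbol in the platform annotation, 396 several and 1193 none. On the array of middle tumor 3, 3125 values were 0 or below 1e-06 and were treated as missing, and their share fell from 33.0% of probe sets with a mean under 70 in the other middle-sized tumors to 15.7% of the brightest.

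Signals under 70 were set to 70 and log2 values taken. A probe set had to reach 70 on 3 or more arrays, and the one with the highest mean stood for a symbol with several, which left 6914. These were tested with limma 3.58.1 in R 4.3.3, letting the spread follow the mean signal, over all 14 arrays with the tumor sizes and control lung as groups, and p-values were adjusted by the Benjamini-Hochberg method over all of them. After the main fit, the same model was also run on simulated arrays built from these data, and the outcome is not given here. Each array is 1 animal, or 1 pool for small tumors, and precision is limited by how few arrays there are. Where all arrays of a group were under 70, a fold is a bound against 70 and its standard error leaves out the spread of that group.

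The genes given are those the study names, the 10 largest rises and falls among called genes without overlap between groups and with a mean of at least 70 in both, the 5 largest bounds each way, the members of each list that changed most or against the majority, the 10 most variable among the middle-sized tumors, and list members shown for their level. Of the 10 largest rises, 1 is left out of this text. The members and lists were chosen with earlier results of these data known. Promoters and positions are from RefSeq (GRCm38.p6), and 4942 of 6128 tested symbols had a promoter. Replicate numbers did not pair the arrays, with correlations of deviations between same-numbered arrays of -0.12, -0.02, -0.21 and -0.23. Alternatives changed the floor, scaling, filter, missing values, probe set choice, model, test and arrays.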

Additional observations from a re-analysis of the deposited data

Results flagged for a closer look

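Of 142 groups of 4 arrays looked at, 6 had 1 array far from the other 3. Chance gives about 1 in 20 for groups not chosen by their values, but the single genes looked at were chosen by their values. Among the tumors, tumor 1 stood apart in 4 of them. Its mean over the ciliated markers was 1.03 above the control mean on the log2 scale, and its Myb signal was 1029, both far above the other 3 tumors. Myb was looked at because it varied most among these same tumors, so the rate of chance does not apply to it. Signals under 70 counted as 70, which sets Myb equal in tumors 3 and 4. Of the 8 ciliated markers, 0, 3, 3 and 4 were under 70 in tumors 1 to 4. The mean of tumor 1 over the cytosolic ribosomal proteins, 0.23, was far below the other 3. Its mean over the 2 mesothelial markers was -1.67, but the other 3 tumors lie at or next to the floor of 70 for both, at -2.19 each, so that their agreement is set by the floor. Among the control lungs, control lung 4 stood apart in the mean over matrix metalloproteinases, cathepsins and inhibitors, at -0.23, and in the signal of the endothelial kinase Tie1, at 1009.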

How the results depend on the processing

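Of 207 named genes tested, 181 were called, 128 kept their call under all 23 alternatives and 24 lost it when 1 array was left out. Scaling each array to 1 median gave 1730 higher probe sets. The methods' t-test after Benjamini-Hochberg adjustment gave 498 higher, 751 lower and 2 between middle-sized and large tumors, and at an unadjusted p under 0.05 it gave 298 between middle-sized and small and 372 between middle-sized and large tumors. Without the floor, 166 were higher and 462 lower at 3-fold, and without the filter 1 was called in each comparison of sizes. Leaving out 1 array gave 789 to 1318 higher, 956 to 1313 lower and, against large tumors, 0 to 10 (1 without tumor 1 and 10 without tumor 4). With the replicate number as a block, 975 were higher and 1074 lower. 4 of the named genes lost their call under this block, and no count over all probe sets moved by over 1.5 times. Of the lists, the adjusted t-test called 11 ribosome biogenesis, 7 mitosis and 7 respiratory chain genes higher, the median scaling called 25 translation genes higher and 2 AP-1 genes higher, and keeping the values of 0 left 9 ribosomal protein, 15 respiratory chain and 3 type II genes higher.

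Some log2 fold changes changed sign. With the values of 0 on tumor 3 kept, Cdk4 was -0.35, Lpcat1 -0.028, Sftpb -1.11 and Sox4 -0.30, which follows from setting a missing value to the floor. The other changes of sign were in genes not called. With the median scaling Cdh1 was 0.0063, Irx3 0.041, Oat 0.0098 and Myh7 0.025, and with array weights Myh7 was 0.36. Reg3g was -0.10 with a floor of 35 and -1.15 without a floor, and Sftpc was -0.032 after quantile normalization and -0.0199 with tumor 3 rescaled. With 1 array left out, Bnip2 ran from -1.66 (where its other probe set had the higher mean) to 0.064, Cdh1 ran from -0.33 to 0.0099, Irx3 ran from -0.62 to 0.86, Myh7 ran from -0.89 to 0.48, Oat ran from -0.62 to 0.70, Reg3g ran from -0.48 to 0.84 and Sftpc ran from -0.20 to 0.13. The cause of these changes was not tested. With 4 arrays a group, changes near the standard error could not be told from the spread between arrays, and signals under 70 carry no order.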
